A study of Homo sapiens with 9 samples.

Results

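The genes described here, 5 of the 15207 gene symbols on the array, encode proteins of cell membranes, caveolae and the nuclear envelope: APLP2, PRKCDBP (now named CAVIN3), GNB1, PLP2 and BANF1. They were chosen by their measured ratio after 1 h of exposure to an extremely low frequency electromagnetic field (ELF-EMF), which was among the lowest once both dye orientations were averaged, so that this ratio is given as a description, without a test. The deposited table held 6 probes of these 5 genes among 30968 probes. Of the 6 probes, 5 had values, 1 per gene, and the second PRKCDBP probe had a value on 0 of 9 arrays. The platform annotation named the genes, and the probe sequences and the exons they read were not given in the sources used here.

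The exposed cells were HaCaT keratinocytes, an immortalized human skin line, kept for 1 h in a sinusoidal field of 50 Hz and 1 mT. The non-exposed HaCaT cells were kept in an identical incubator without the field. According to the methods, cells of both kinds had been synchronized by serum starvation and released by serum, so this background is shared. RNA of exposed and non-exposed cells was co-hybridized on 2-colour Phalanx Human OneArray slides in 3 biological samples, named A, B and C. Each sample had 2 arrays with exposed RNA in Cy5 (replicates 1 and 2) and 1 dye swap with exposed RNA in Cy3. All cells came from 1 line, and the labels do not say what separated samples A, B and C, so the spread between them may be partly technical. Every ratio below is the log2 of exposed over non-exposed, and the dye-swap values were turned in sign for that purpose. The dye-balanced ratio of a sample is the mean of its Cy5 arrays averaged with its dye swap.

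APLP2 is a single-pass membrane protein of the amyloid precursor family, whose members are shed by cell surface proteases and then cut within the membrane by gamma-secretase. PRKCDBP encodes cavin-3, one of the coat proteins that shape caveolae, the small flask-like pits of the plasma membrane that caveolins build, and it binds protein kinase C delta. GNB1 is a beta subunit of the heterotrimeric G proteins, which with a gamma subunit forms the dimer that receptors release from the alpha subunit. PLP2 is a small multi-span protein of the MARVEL family found in the endoplasmic reticulum and the plasma membrane. BANF1, also called barrier-to-autointegration factor, bridges DNA and the LEM-domain proteins and lamins of the inner nuclear membrane, and it helps the nuclear envelope to form again after mitosis. The values are ratios of RNA from whole cultures, in which fewer expressing cells and less RNA per cell cannot be told apart.

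The arrays carried values for 3.76% to 23.4% of the probes, and 570 probes measured at least once per sample in each orientation were tested. The probes of all 5 genes were among them. Over the 570 probes the dye-balanced ratio had a median of -0.12, and the medians of all turned values on an array lay between -0.38 and 0.31. After turning, arrays of opposite orientation correlated with a Pearson r of -0.42 to 0.15 over probes (18 pairs, median -0.014). Pairs with exposed RNA in Cy5 had an r of -0.19 to 0.48 and pairs of dye swaps one of 0.38 to 0.45. Of 8 keratinocyte marker genes, 6 had a value on at least 1 array, against 0 of 1 leukocyte, 1 of 3 fibroblast and 1 of 3 melanocyte markers, but ratios carry no information on how high a gene was expressed. The signal over background of any probe is unknown, and the number of arrays limits the precision.

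The promoter windows of 4 of the 5 genes (250 bases before to 50 after the start, RefSeq, GRCh38.p14, 5′ to 3′ on the gene's strand) are shown because these genes lay low together in the dye-balanced ratio. PRKCDBP is missing because the promoter set used here held no window for it. Capitals mark GC boxes (GGGCGG, or CCGCCC on the other strand), the letters that the SP1 family binds, and the ETS core (CGGAAG, or CTTCCG on the other strand).
APLP2 (chr11:130070318-130070617, plus strand): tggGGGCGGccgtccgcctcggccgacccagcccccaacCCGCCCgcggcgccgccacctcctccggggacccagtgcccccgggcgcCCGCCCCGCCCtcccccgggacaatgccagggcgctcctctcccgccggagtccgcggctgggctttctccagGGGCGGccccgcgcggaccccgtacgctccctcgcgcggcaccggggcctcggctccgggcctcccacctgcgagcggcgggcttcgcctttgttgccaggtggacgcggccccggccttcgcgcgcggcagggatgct
GNB1 (chr1:1891038-1891337, minus strand): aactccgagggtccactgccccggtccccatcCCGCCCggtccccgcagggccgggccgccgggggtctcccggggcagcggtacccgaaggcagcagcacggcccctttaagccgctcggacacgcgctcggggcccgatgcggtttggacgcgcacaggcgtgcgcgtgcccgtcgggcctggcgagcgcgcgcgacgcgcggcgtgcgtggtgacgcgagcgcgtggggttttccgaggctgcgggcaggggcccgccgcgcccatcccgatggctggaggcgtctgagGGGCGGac
PLP2 (chrX:49171648-49171947, plus strand): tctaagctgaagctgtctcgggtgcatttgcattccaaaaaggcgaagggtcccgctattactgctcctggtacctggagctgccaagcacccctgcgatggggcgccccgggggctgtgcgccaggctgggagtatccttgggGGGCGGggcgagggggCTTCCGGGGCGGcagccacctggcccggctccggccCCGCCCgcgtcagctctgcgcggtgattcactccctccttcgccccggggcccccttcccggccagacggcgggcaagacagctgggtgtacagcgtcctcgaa
BANF1 (chr11:66002253-66002552, plus strand): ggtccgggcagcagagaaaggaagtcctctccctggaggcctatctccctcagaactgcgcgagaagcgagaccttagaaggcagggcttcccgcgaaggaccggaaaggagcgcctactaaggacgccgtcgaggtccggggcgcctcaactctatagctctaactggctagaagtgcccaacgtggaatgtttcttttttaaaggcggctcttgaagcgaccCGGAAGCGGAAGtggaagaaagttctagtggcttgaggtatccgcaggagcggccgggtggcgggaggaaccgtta

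None of the 6 motifs searched occurred in all 4 windows. A GC box occurred in APLP2 (5 matches, 2 of them sharing a base), PLP2 (3) and GNB1 (2), but not in the BANF1 window, and it was in 45.0% of all 35116 RefSeq promoter windows of this length. The ETS core occurred in BANF1 with 2 matches next to each other, starting 26 and 20 bases before the start, and once in PLP2, directly before a GC box. It was in 19.5% of all windows. The CCAAT box (CCAAT or ATTGG), the TATA box (TATAAA or TTTATA), the E-box (CACGTG) and the cyclic AMP response element (TGACGTCA) were in none of the 4, against 34.6%, 11.5%, 7.26% and 1.85% of all windows. The windows of APLP2 and GNB1 held 80.7% and 77.3% G and C, that of PLP2 69.3% and that of BANF1 58.7%, which was also the median of all windows. A match to these letters is a description of the sequence and not a binding site.

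APLP2, the amyloid precursor relative, had the lowest ratio of the 5 genes, and that ratio came from the dye swaps of samples B and C. With exposed RNA in Cy5 its log2 ratios were -0.18 and 0.030 in sample A, -0.10 in sample B (replicate 2 had no value) and -0.094 and 0.71 in sample C. On the dye swaps they were -0.13 in sample A, -2.07 in B and -1.95 in C. The swaps of B and C were each the lowest of all 570 tested probes on their array, whereas the Cy5 arrays lay on both sides of 0 and overlapped the swap of sample A. The dye-balanced log2 ratio was -0.10, -1.09 and -0.82 in samples A, B and C, with a mean of -0.67 ± 0.51 (SD, n = 3), or 37.2% less in exposed cells. The mean was 0.043 over the Cy5 arrays and -1.39 over the dye swaps. Left without the dye swap of sample B the APLP2 ratio was -0.34, and without that of sample C -0.30. The sample without its swap then entered with its Cy5 mean alone, which is not dye-balanced.

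PRKCDBP, the caveolar coat protein cavin-3, was the only one of the 5 genes below 0 on every array with a value. With exposed RNA in Cy5 its log2 ratios were -0.23 and -0.17 in sample A, -0.34 and -0.64 in sample B and -1.47 in sample C, where replicate 2 had no value. On the dye swaps they were -0.56, -0.79 and -0.17 in samples A, B and C. Both orientations thus covered a similar range apart from the single Cy5 array of sample C, which was the lowest, and the 2 arrays of sample C lay furthest apart. Dye-balanced log2 ratios were -0.38, -0.64 and -0.82, with a mean of -0.61 ± 0.22 (SD, n = 3), or 34.6% less. The mean was -0.72 over the Cy5 arrays and -0.50 over the dye swaps. Without the Cy5 array of sample C, PRKCDBP was at -0.40, with sample C then entered by its dye swap alone. Relative to the median of all values on an array, PRKCDBP was above it on 1 of 8 arrays, the dye swap of sample C, by 0.0071. Of the 570 tested probes, 12 were below 0 on all arrays with a value.

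GNB1, the G protein beta subunit, was low on the dye swaps and near 0 on most arrays with exposed RNA in Cy5. The Cy5 arrays gave log2 ratios of -0.15 and -0.0058 in sample A, -0.020 and -0.57 in sample B and 0.0043 and 0.27 in sample C. The dye swaps gave -1.38, -1.41 and -0.57. The lowest Cy5 array and the highest dye swap met at -0.57, and the other values of the 2 orientations did not overlap. The dye-balanced log2 ratio was -0.73, -0.85 and -0.22 in samples A, B and C (mean -0.60 ± 0.34, SD, n = 3), or 34.0% less. Over the Cy5 arrays the mean was -0.078 and over the dye swaps -1.12. Without the dye swap of sample A the GNB1 ratio was -0.38, with sample A then entered by its Cy5 mean alone.

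PLP2, the MARVEL-family membrane protein, was below 0 on 8 of 9 arrays. With exposed RNA in Cy5 it had log2 ratios of -0.16 and -0.0072 in sample A, -0.44 and -1.42 in sample B and -0.059 and 0.32 in sample C. On the dye swaps it had -0.62, -0.94 and -1.004. The dye swaps lay close together, while the Cy5 arrays ranged from the lowest rank on the second array of sample B to above the median of the tested probes in sample C. The 2 Cy5 arrays of sample B differed by 0.98, against a median difference of 0.26 over the tested probes in that sample. PLP2 had dye-balanced log2 ratios of -0.35, -0.93 and -0.44 in samples A, B and C (mean -0.57 ± 0.31, SD, n = 3), or 32.8% less. Its mean was -0.29 over the Cy5 arrays and -0.85 over the dye swaps.

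BANF1, the DNA-binding protein of the nuclear envelope, was on both sides of 0 with exposed RNA in Cy5 and low on all 3 dye swaps. The Cy5 arrays had log2 ratios of -0.21 and 0.22 in sample A, -0.51 and 0.037 in sample B and 0.088 and 0.30 in sample C. The dye swaps had -0.51, -1.39 and -1.38. A single Cy5 array, the first of sample B, reached down to the level of the highest dye swap. Dye-balanced BANF1 log2 ratios were -0.25, -0.82 and -0.59 (mean -0.55 ± 0.28, SD, n = 3), or 31.9% less. The mean was -0.014 over the Cy5 arrays and -1.09 over the dye swaps. Without the dye swap of sample B BANF1 was at -0.36, and without that of sample C at -0.29. The sample concerned then entered with its Cy5 mean alone.

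**Figure D1:**
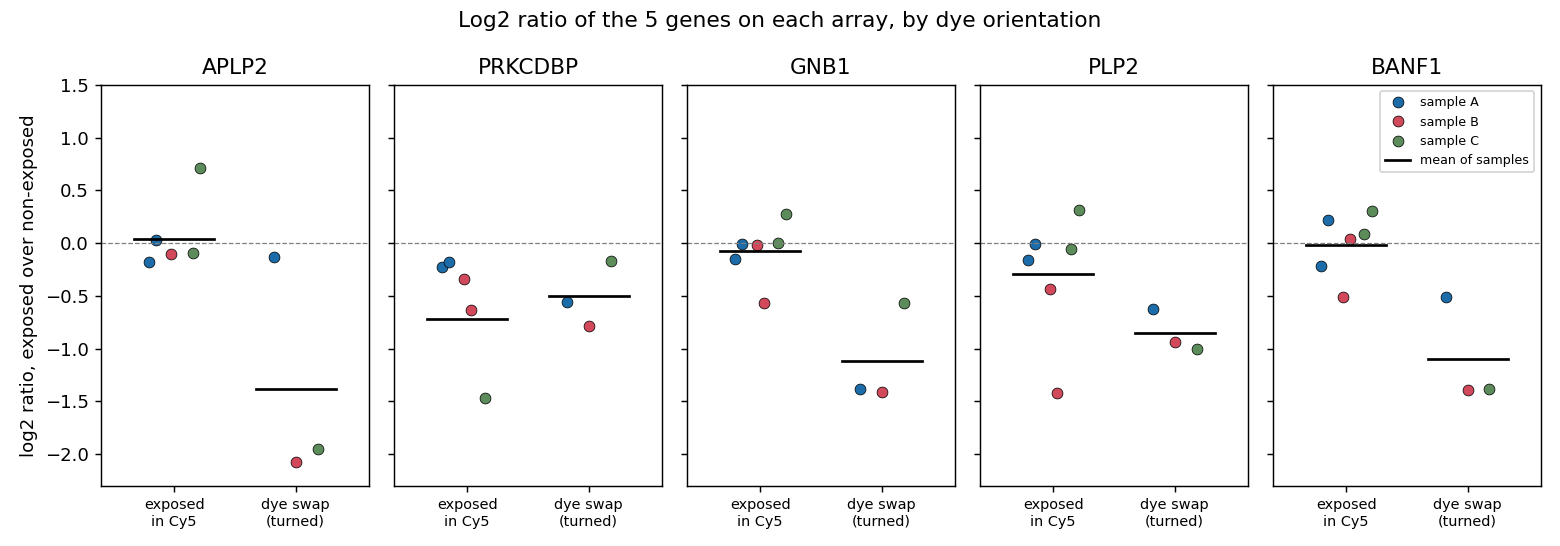
Log2 ratio of exposed over non-exposed cells for each gene on each array (points, coloured by biological sample), with the hybridizations of Cy5-labelled exposed RNA left of the turned dye swaps and lines at the mean of the samples. APLP2, GNB1 and BANF1 lie around 0 on the left and at a mean of -1.39, -1.12 and -1.09 on the right, while PRKCDBP lies below 0 in both.

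The choice of the 5 genes by this ratio placed their means close together, so their order is given as a description. From the lowest upward it was APLP2, PRKCDBP, GNB1, PLP2 and BANF1, and neighbours differed by means of -0.060 to -0.013, with an SD of 0.15 to 0.52 over the 3 samples. The first and the last, APLP2 and BANF1, differed by -0.12 ± 0.23 (SD, n = 3). Among the 570 tested probes the 5 genes ranked 3, 6, 8, 13 and 14 from the lowest, and the rule that picked them named no limit. The probe of rank 15, without a gene symbol, was at -0.53. In sample A, GNB1 was the lowest of the 5 and APLP2 the highest, in sample B APLP2 was the lowest, and in sample C APLP2 and PRKCDBP were both at -0.82, so that the order changed between samples.

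**Figure D2:**
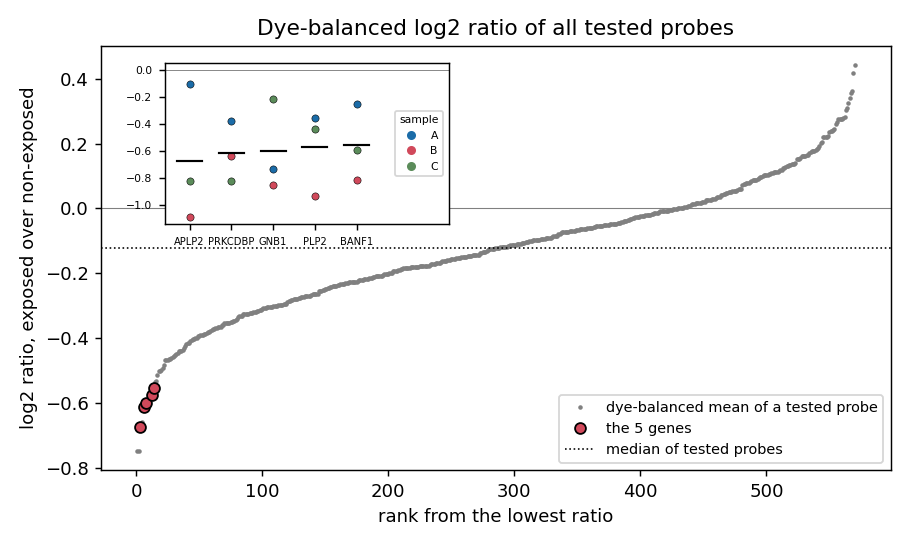
Dye-balanced log2 ratio by rank for the 570 tested probes (grey), with the 5 genes in red and the median of -0.12 as a dotted line. The inset gives the 3 samples of each gene on the same log2 scale, with lines at the means, which run from -0.67 for APLP2 to -0.55 for BANF1.

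The 2 dye orientations ranked each of the 5 genes differently. On the dye swaps alone APLP2 ranked 1, GNB1 4, BANF1 5, PLP2 20 and PRKCDBP 107 of 570. With exposed RNA in Cy5, PRKCDBP ranked 4 and PLP2 69, while GNB1, BANF1 and APLP2 lay at ranks 271, 349 and 413.5, near or above the middle. The median of the 5 genes was -0.078 on the Cy5 arrays and -1.09 on the dye swaps, against -0.069 and -0.18 for all tested probes. Read as deposited, as Cy5 over Cy3, GNB1 and BANF1 had a log2 ratio above 0 on the dye swaps and near 0 with exposed RNA in Cy5. All 3 dye swaps were below 0 in each of the 5 genes and in 39.6% of all tested probes. All Cy5 arrays with a value were below 0 in PRKCDBP and in 8.25% of all tested probes. Over the 570 probes, the Cy5 mean and the dye-swap mean had a Pearson r of -0.11 and a Spearman rho of -0.063, given as a description across probes that share the same slides.

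When the 9 arrays were described by an exposure and a dye term with the biological sample as a random block, the exposure term was -0.67 for APLP2, -0.55 for PRKCDBP, -0.60 for GNB1, -0.57 for PLP2 and -0.55 for BANF1. The log2 dye term, Cy5 over Cy3, was 0.72 for APLP2, 0.52 for GNB1 and 0.54 for BANF1, and thus close in size to their exposure terms. It was 0.28 for PLP2 and -0.042 for PRKCDBP. For GNB1, PLP2 and BANF1, with values on all 9 arrays, the exposure term equals the dye-balanced mean by construction and is not a second estimate. For APLP2, with a value on 8 arrays, both were -0.67. For PRKCDBP, also on 8 arrays, they were -0.55 and -0.61. A dye effect of the same size on all arrays of a sample cancels in the dye-balanced ratio of that sample. The Cy5 mean minus the turned dye swap holds this dye effect from both orientations, so it is on a wider scale than the dye term. It was 0.059, 1.97 and 2.26 for APLP2 in samples A, B and C. It was 1.31, 1.12 and 0.71 for GNB1, 0.54, 0.0097 and 1.13 for PLP2 and 0.51, 1.16 and 1.58 for BANF1. For PRKCDBP it was 0.36, 0.30 and -1.3, with the opposite sign in sample C. These differences thus varied between samples, most for APLP2. A dye effect that differed between the arrays of a sample would not cancel, and its part in the low ratios was not tested.

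**Figure D3:**
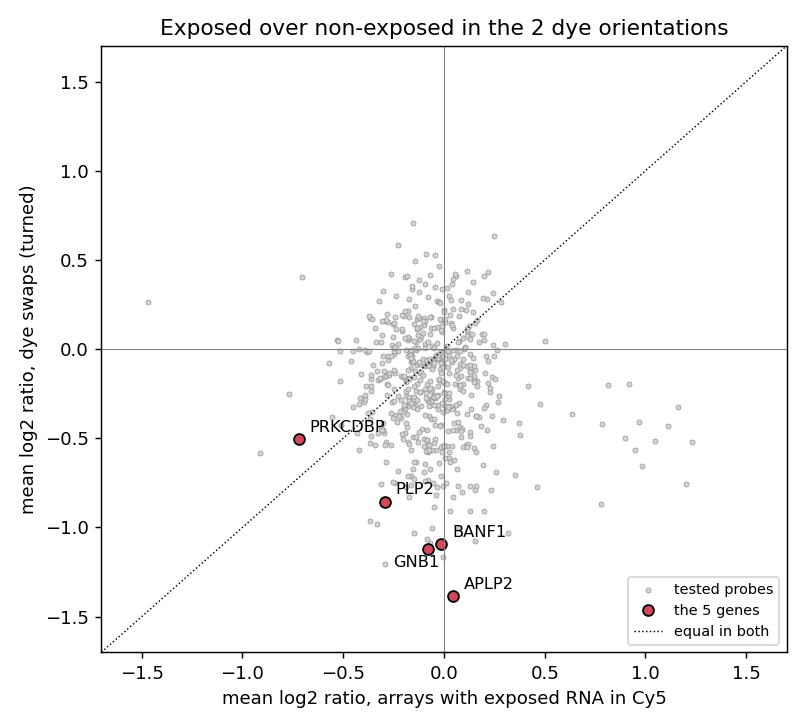
Mean log2 ratio of exposed over non-exposed with Cy5-labelled exposed RNA (horizontal) and on the turned dye swaps (vertical) for the 570 tested probes (grey) and the 5 genes (red), with the dotted line where both are equal. APLP2, GNB1 and BANF1 lie at the bottom near 0 of the horizontal axis, and PRKCDBP, at -0.72 and -0.50, lies near the dotted line.

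By array, the 5 genes moved together in some hybridizations and not in others. All 5 were below the median of the tested probes on the first array of sample A and on the dye swaps of samples A and B. On the dye swap of sample C, 4 of 5 were below it. On the second array of sample C, 0 of the 4 with a value were below 0 or below the median, and on the first array of sample C 1 of 5, PRKCDBP, was below the median. Sample B gave the lowest dye-balanced ratio for 4 of the 5 genes, and PRKCDBP was lowest in sample C. These ratios were not centred, and the medians of all turned values on the arrays of sample B were -0.13, -0.35 and -0.38.

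Across the arrays, APLP2 and BANF1 had the most similar patterns among the 5, and PRKCDBP differed from the others. With each array centred on the median of the tested probes, the Pearson r was 0.92 between APLP2 and BANF1, 0.84 between APLP2 and PLP2 and 0.55 between APLP2 and GNB1 (8 shared arrays each). Over 9 arrays GNB1 had an r of 0.63 with BANF1 and 0.58 with PLP2, and PLP2 had 0.49 with BANF1. PRKCDBP had an r of -0.12 with GNB1, -0.40 with BANF1 and -0.56 with PLP2 over 8 arrays, and these were 0.075, -0.18 and -0.064 without centring. With APLP2 it shared too few arrays to be compared. These points share slides, dyes and normalization, and the r values are descriptions.

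Among the other tested probes with a gene symbol, those most like APLP2 were COPA, a coat protein of Golgi vesicles (r = 0.96), DFFA, the inhibitor of the apoptotic nuclease (r = 0.94), and the tubulin TUBA1C (r = 0.94), of 332 probes with at least 8 shared arrays. BANF1 was most like HNRNPH3, an RNA-binding protein (r = 0.96), TUBA1C (r = 0.93) and the tautomerase DDT (r = 0.93). PLP2 was most like the thioredoxin-related membrane protein TMX2 (r = 0.94), DDT (r = 0.92) and the 14-3-3 protein YWHAB (r = 0.85). GNB1 was most like the chaperone HSPA4 (r = 0.91), EMC6 of the endoplasmic reticulum membrane complex (r = 0.88) and SLC3A2, the heavy chain of amino acid transporters (r = 0.86), of 419 probes. The probes most like PRKCDBP were the proteasome subunit PSMA7 (r = 0.89), the 14-3-3 protein YWHAG (r = 0.87) and the transcription factor JUND (r = 0.85), of 230 probes. Of these, PSMA7 and YWHAG had mean log2 ratios of -0.036 and -0.039, so that a like pattern did not mean a like level.

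Genes of the same families and pathways, listed by function, showed no change that passed the limma test. The 5 lists held 119 genes besides the 5 above, of which 109 had a probe, 55 a value on at least 1 array and 42 a value in at least 2 biological samples. Of these 42 genes, 5 were among the 570 tested probes, and 0 passed in either direction (1 at an unadjusted p under 0.05, APH1A). In that fit limma called 22 of 570 probes lower, which is 3.86%, and 0 higher, which is 0%. At an unadjusted limma p under 0.05 there were 116 of the 570 probes, of which 108 were lower. The other 37 genes were fitted over 5688 probes with a value in at least 2 samples, where a sample with 1 orientation is not dye-balanced. In that fit 0 of 5688 probes passed in either direction, with 216 at an unadjusted p under 0.05, of which 155 were lower. Among the probes of those 37 genes 1 was at an unadjusted p under 0.05, that of GNA15.

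Around APLP2, all 10 measured genes of the amyloid precursor family and its proteases had ratios below 0, with a median log2 ratio of -0.16, and none passed. For comparison, 75.3% of the 570 tested probes and 65.8% of the 5688 probes were below 0, and their medians were -0.12 and -0.091. APH1A, a subunit of gamma-secretase, averaged -0.40 ± 0.24 on the log2 scale (SD, n = 3, limma adjusted p = 0.106), with 8 of 9 arrays under 0, and was at -0.27 without sample B. APP itself had -0.12 ± 0.16 (adjusted p = 0.711), with a mean of 0.21 on the Cy5 arrays and -0.45 on the dye swaps, and was at -0.029 without sample B. The lowest of the list was the gamma-secretase subunit PSENEN at -0.53 in 2 samples (adjusted p = 0.883), named after its value was seen, which was measured on 3 arrays and on 0 dye swaps.

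Around PRKCDBP, only 5 of the 16 listed genes of caveolae and membrane coats were measured, and no other cavin was among them. Their median log2 ratio was -0.12, near the median of all probes. CAV1, the caveolin that forms the pits in most cells, had a log2 ratio of 0.050 ± 0.037 (SD, n = 3, limma adjusted p = 0.893), with 0.099 on the Cy5 arrays. EHD1, a membrane-remodelling ATPase, had -0.12 ± 0.16 (adjusted p = 0.711), and -0.042 without sample C. The other 3 measured genes of this list had log2 ratios between -0.29 and 0.14. The protein kinase C delta gene PRKCD, whose product binds cavin-3, was among them at -0.12 ± 0.62 (SD, n = 2, adjusted p = 0.946), named after its value was seen.

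Around GNB1, the measured G protein genes were split, with 5 of 10 probes below 0 and a median log2 ratio of 0.019 over 9 genes. GNA15, an alpha subunit of the Gq class, averaged -0.56 ± 0.31 (SD, n = 3, limma adjusted p = 0.883) on 3 arrays, 1 of them a dye swap, and all were below 0. GNB2, another beta subunit, had -0.35 ± 0.38 (adjusted p = 0.883), with 5 of 6 arrays under 0, and was at -0.13 without sample B. GNB2 had a mean of -0.19 on the Cy5 arrays and -0.67 on the 2 dye swaps with a value.

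Around PLP2, 3 of 12 probes of MARVEL and other 4-span membrane proteins were below 0, with a median log2 ratio of 0.050. MYADM, of the MARVEL family, had a log2 ratio of 0.53 ± 0.61 (SD, n = 2, limma adjusted p = 0.883) from 1 probe on 2 arrays and 0.16 ± 1.12 from its other probe (adjusted p = 0.946). CMTM1, of the same family, had 0.53 ± 0.82 (SD, n = 3, adjusted p = 0.883), with 3 of 7 arrays under 0. Its ratio was 0.080, 1.47 and 0.036 in samples A, B and C, and 0.058 without sample B. BCAP31, an endoplasmic reticulum protein known to bind PLP2, had -0.15 ± 0.26 (adjusted p = 0.895) and was named after its value was seen.

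Around BANF1, 7 of 10 measured genes of the nuclear envelope, the lamina and BANF1 partners were below 0, with a median log2 ratio of -0.23. TMPO, which encodes LEM-domain proteins that bind BANF1, had a log2 ratio of -0.42 ± 0.50 (SD, n = 2, limma adjusted p = 0.883) on 2 arrays. PPP2R1A, the scaffold of the phosphatase that acts on BANF1 at mitotic exit, had -0.36 ± 0.33 (SD, n = 2, adjusted p = 0.883) on 3 arrays. The lowest was LMNA, the gene of lamins A and C, at -0.45 ± 0.80 (SD, n = 3, adjusted p = 0.883), named after its value was seen. Neither TMPO nor PPP2R1A had a dye swap.

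**Figure D4:**
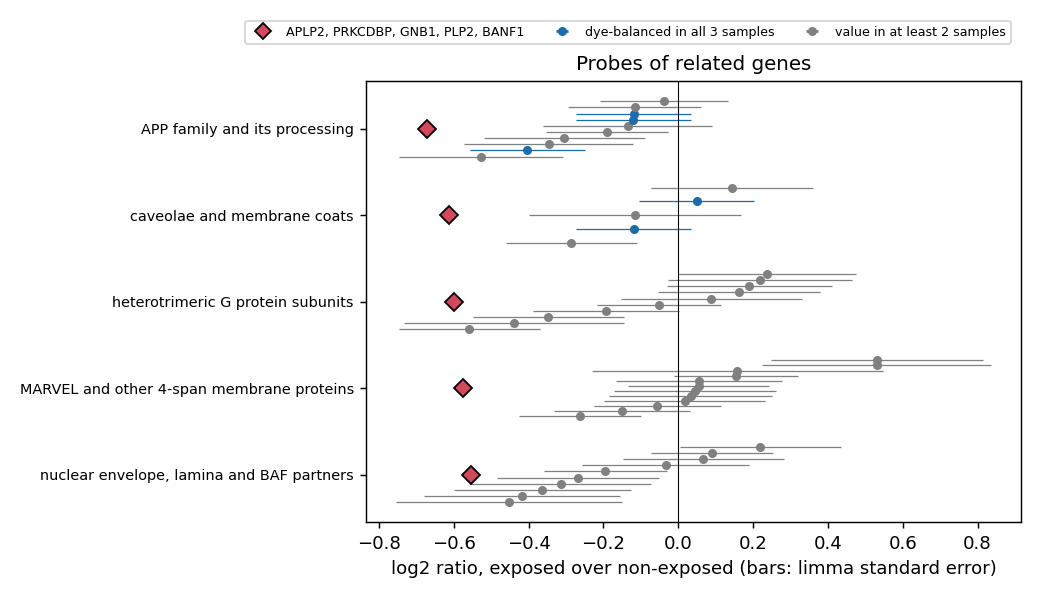
Log2 ratio of exposed over non-exposed for each probe of the 5 lists of related genes (points, bars of 1 limma standard error), blue where dye-balanced in all 3 samples and grey where a value existed in at least 2, with the gene each list belongs to as a red diamond. The red diamonds lie between -0.67 and -0.55, below every probe of their list, and the nearest is GNA15 at -0.56, beside GNB1 at -0.60. The 5 genes were chosen for a low ratio, so their position is no result about the lists.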

How the data were processed

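The arrays compared RNA of exposed and non-exposed HaCaT cells. The authors normalized the scans in ScanArray Express by a method their text does not name and deposited for each array and probe the log2 of Cy5 over Cy3. The scale was read from the values, since as log2 they turn into linear ratios with 3 decimals for 86.6% to 99.1% of an array (tolerance 0.05 of a thousandth). The direction was taken from the dyes in the labels, and the values do not settle it. After turning, arrays of opposite orientation had a median r of -0.014, with 9 of 18 pairs below 0. The step that left probes without a value is not stated. Of 30968 probes, 17397 had 1 symbol, 0 several and 13571 none, and 99.5% of symbols were current or matched as synonyms in the RefSeq table of GRCh38.p14.

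Dye-balanced values of the 3 samples entered an intercept model in limma (3.58.1, R 4.3.3) with eBayes, and two-sided p-values were adjusted by Benjamini-Hochberg over all probes of the fit (threshold 0.05). The fit gave all 570 probes a standard error of 0.154. Probes of 1 gene were kept apart. The named genes were the 5 genes, the 2 genes of each list with the smallest p, tested probes first, and the 3 tested probes most correlated with each of the 5. The genes and lists were chosen with earlier results of these data known. The alternatives were the dye balance, each orientation, 2 normalizations, 2 filters, 2 spreads, a dye term with a random block, unturned dye swaps and leaving out samples or technical arrays. Leaving out single arrays and the correlations on values as deposited were added after the data were seen. Where a left-out array held the only value of its orientation in a sample, that sample entered with its other orientation alone, not dye-balanced. Promoter sequences came from RefSeq.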

Additional observations from a re-analysis of the deposited data

Results flagged for a closer look

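The second array of sample C with exposed RNA in Cy5 gave APLP2 a log2 ratio of 0.7093, which lay far above its other 4 Cy5 arrays, whose highest value was 0.030. The 4 genes with a value on that array were all above 0 there. The median log2 ratio of all its probes was 0.31, but that of the tested probes was -0.063. Of the 5 genes examined in this way, APLP2 alone had such an array, and chance alone gives some such groups, about 5% of them. Without that array the dye-balanced APLP2 log2 ratio was -0.74.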

How the results depend on the processing

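Of the dye-balanced ratios, those of APLP2, GNB1 and BANF1 depended most on the dye orientation. With the Cy5 orientation alone, the median over the 5 genes was -0.078, with APLP2 at 0.043, GNB1 at -0.078 and BANF1 at -0.014. With only the dye swaps the median was -1.09. With the dye swaps left unturned the median was 0.52, with APLP2 at 0.72, GNB1 at 0.52, PLP2 at 0.28, BANF1 at 0.54 and PRKCDBP at -0.11. A plain mean of the arrays, centring, quantile normalization and the random block kept all 5 below 0, with medians of -0.48, -0.46, -0.56 and -0.57. For GNB1, PLP2 and BANF1 the random block repeats the dye-balanced mean by construction. Leaving out a sample, a set of technical arrays or a single array kept all values below 0, with medians between -0.70 and -0.39. The 5 genes were picked for a low mean over these same arrays. Values that stay below 0 when the arrays are averaged, centred or left out in other ways are thus a description and no test. Without the arrays of replicate 1, APLP2 and PRKCDBP had no dye-balanced value in all samples.

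The number of the 570 probes past the threshold, 22 lower and 0 higher, was 8 and 3 with the plain mean, 5 and 14 with only exposed RNA in Cy5, 10 and 0 with only the dye swaps and 13 and 4 with centring. It was 14 lower of the 247 probes with values on all 9 arrays, 1 lower with the random block and 0 with 33 higher when the dye swaps were left unturned. With quantile normalization, the looser filter (5688 probes), eBayes with trend and robust options or each probe on its own spread it was 0 in both directions. Leaving out samples or technical arrays gave 3 (without sample B) to 29 lower and 0 to 3 higher, with 10 lower without sample A and 10 without C. The 29 lower were of the 460 probes left without the arrays of replicate 2, and without those of replicate 1 it was 7 lower of 293. The 5 related genes among the 570 probes gave 0 calls under each of these settings in which they had a value. Of the 37 others, only GNA15, GNB2, MYADM, CMTM1, TMPO and PPP2R1A were followed through the settings. None of these passed where it was fitted. Those outside the 570 probes were not fitted with the random block or with values on all 9 arrays. With only exposed RNA in Cy5 APP was at 0.21, EHD1 at 0.0020 and CMTM1 at -0.17. With unturned dye swaps APH1A was at 0.12, APP at 0.33, EHD1 at 0.12, GNA15 at 0.048, GNB2 at 0.099 and CMTM1 at -0.64. The causes were not tested. No replicate number is shared between the orientations.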
